A study of Mus musculus with 4 samples.

Results

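The genes described here are 56 genes of mitosis, covering entry into mitosis, mitotic kinases, the spindle checkpoint, protein degradation, the kinetochore, kinesins, the spindle, condensin with other chromosome proteins, and cytokinesis. They were taken by gene symbol from a table of 54532 genes, each symbol matched 1 row, and their values in the comparison were not part of the choice rule. The list was, however, chosen with earlier results of these data known. RNA was sequenced from epidermal stem cells (EpSCs), keratinocyte progenitors of the skin, taken from the skin of the mouse strain C57BL/6 and cultured in EpiLife with a growth supplement. Treated cultures received 30 μg/mL ALP for 48 h, and control cultures received 0.06% DMSO for 48 h. ALP is read here as the burdock (Arctium lappa) polysaccharide that the series title names. Each group held 2 libraries, called replicates A and B, and the letters pair nothing. The labels give no age of the mice and leave unsaid whether ALP cultures also received DMSO. They also leave unsaid whether a group's libraries are separate cultures or separate animals. The p-values therefore reflect the spread among these 4 libraries alone, and that spread may be technical.

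In mitosis, cyclin B with its kinase Cdk1 drives the cell into division, condensins compact the chromosomes, and spindle microtubules attach to each chromosome at its kinetochore. The spindle checkpoint holds the cell until attachment is complete, after which a ubiquitin ligase, the anaphase-promoting complex, marks cyclin B and securin for destruction and a contractile ring divides the cell. Most of these transcripts are made in the G2 and M phases, so in the epidermis they mark the dividing cells of the basal layer.

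Library totals lay between 15766244 and 17430345 counts. Of the 14056 genes with enough counts to test, 30.9% passed an adjusted p of 0.05 in edgeR's quasi-likelihood test, the threshold used throughout, and the median fold over all 14056 genes was 0.998. The label of the cells was checked against keratinocyte markers: Krt14, a keratin of basal keratinocytes, had 14300 and 11200 CPM (counts per 1000000) in ALP replicates A and B, against 19000 and 19200 CPM in control replicates A and B. Krt15, another basal keratin, had 58.4 and 1.75 CPM in ALP replicates A and B, against 251 and 201 CPM in controls. It did not pass the test (adjusted p = 0.12). The basal markers that rose or fell are named further below. All CPM values of single genes are scaled by trimmed mean of M-values (TMM).

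Mitotic transcripts were mostly higher in ALP cultures, by modest amounts that varied between genes. All 56 genes passed the filter on low counts. Of them 37 rose and 0 fell, where 18.0% of all tested genes rose and 12.9% fell, so 66.1% of the mitotic genes were called higher. Their median log2 difference was 0.46, a fold of 1.38, with quartiles of 0.28 and 0.57. Across all tested genes the quartiles were -0.41 and 0.37. No mitotic gene changed by 2-fold or more: the differences ran from -0.28 for Cenpk to 0.98 for Bub1. Of all tested genes, 812 were called higher with a rise of at least 2-fold.

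Both ALP libraries lay above both control libraries for 48 of the 56 genes, against 38.2% of all tested genes. Both lay below for 3 genes, against 37.5% of all tested genes, and the groups overlapped for the other 5. Over all 14056 tested genes the groups overlapped for only 3415. A lack of overlap, where given below, is therefore description alone. Against the mean of the controls, ALP replicates A and B had median log2 deviations over the 56 genes of 0.43 and 0.46, and control replicates A and B of -0.03 and 0.03. The 56 genes together took 0.591% and 0.604% of the counts in ALP replicates A and B, against 0.454% and 0.465% in control replicates A and B. In RNA from whole cultures, fewer or more dividing cells cannot be told apart from less or more RNA per cell.

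**Figure D1:**
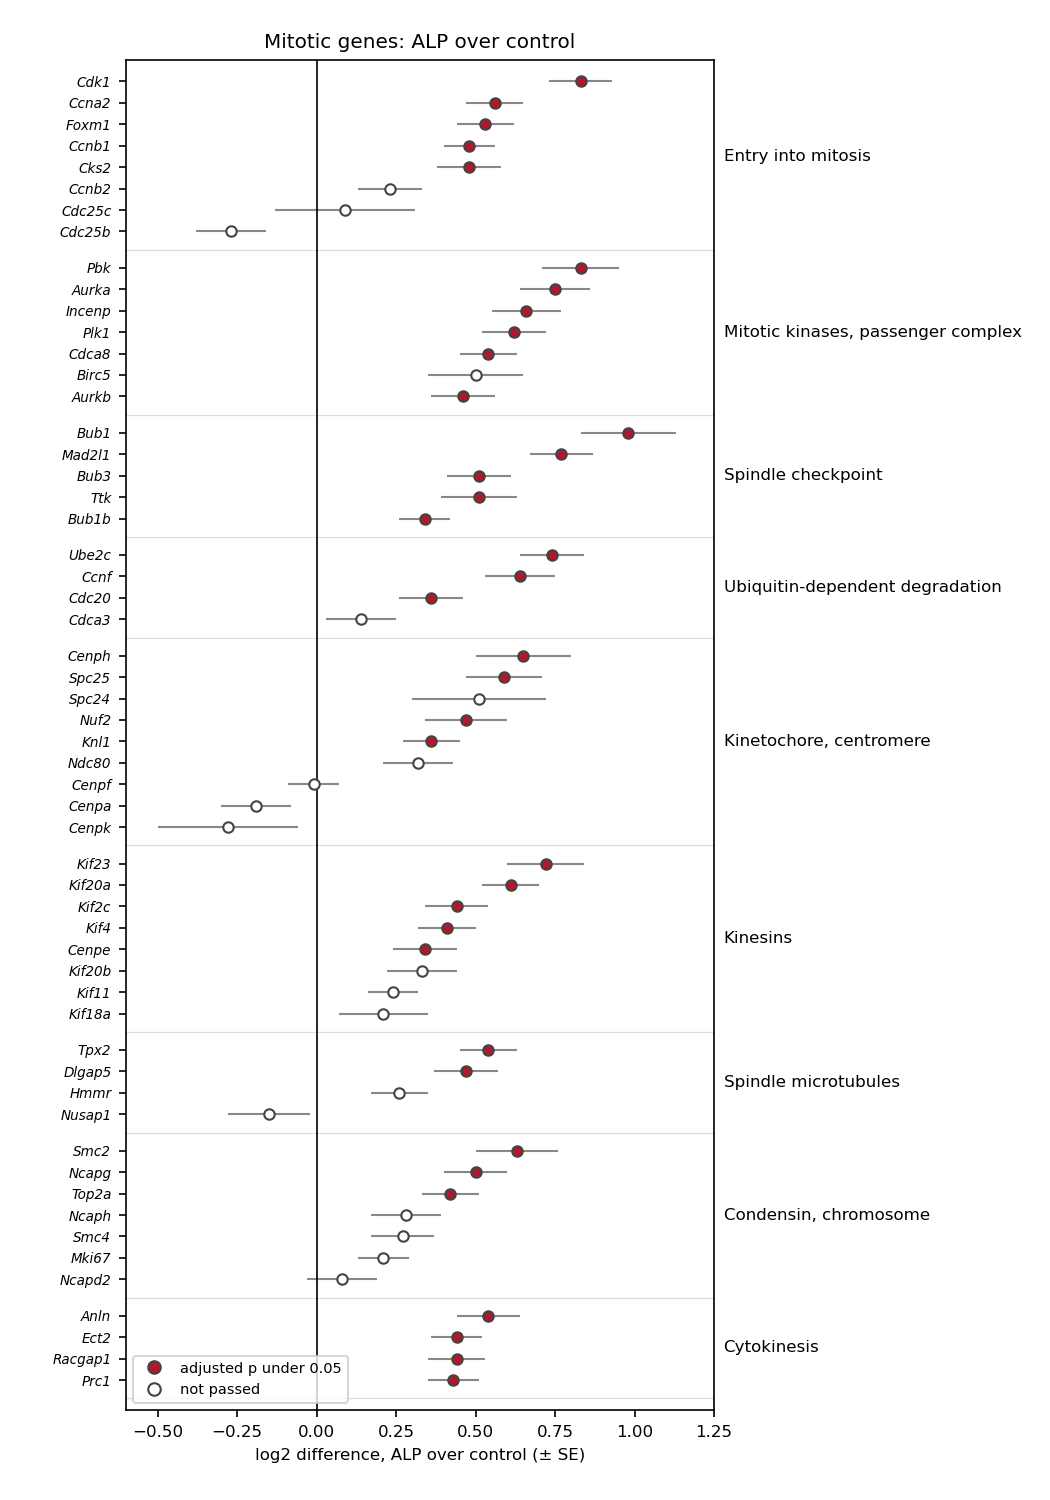
Log2 difference, ALP over control, of each of the 56 mitotic genes by role, with bars for the standard error and filled points for genes with an adjusted p under 0.05 (n = 2 libraries per group). Filled points lie to the right of zero in every role, and the 5 genes left of zero are all unfilled.

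**Figure D2:**
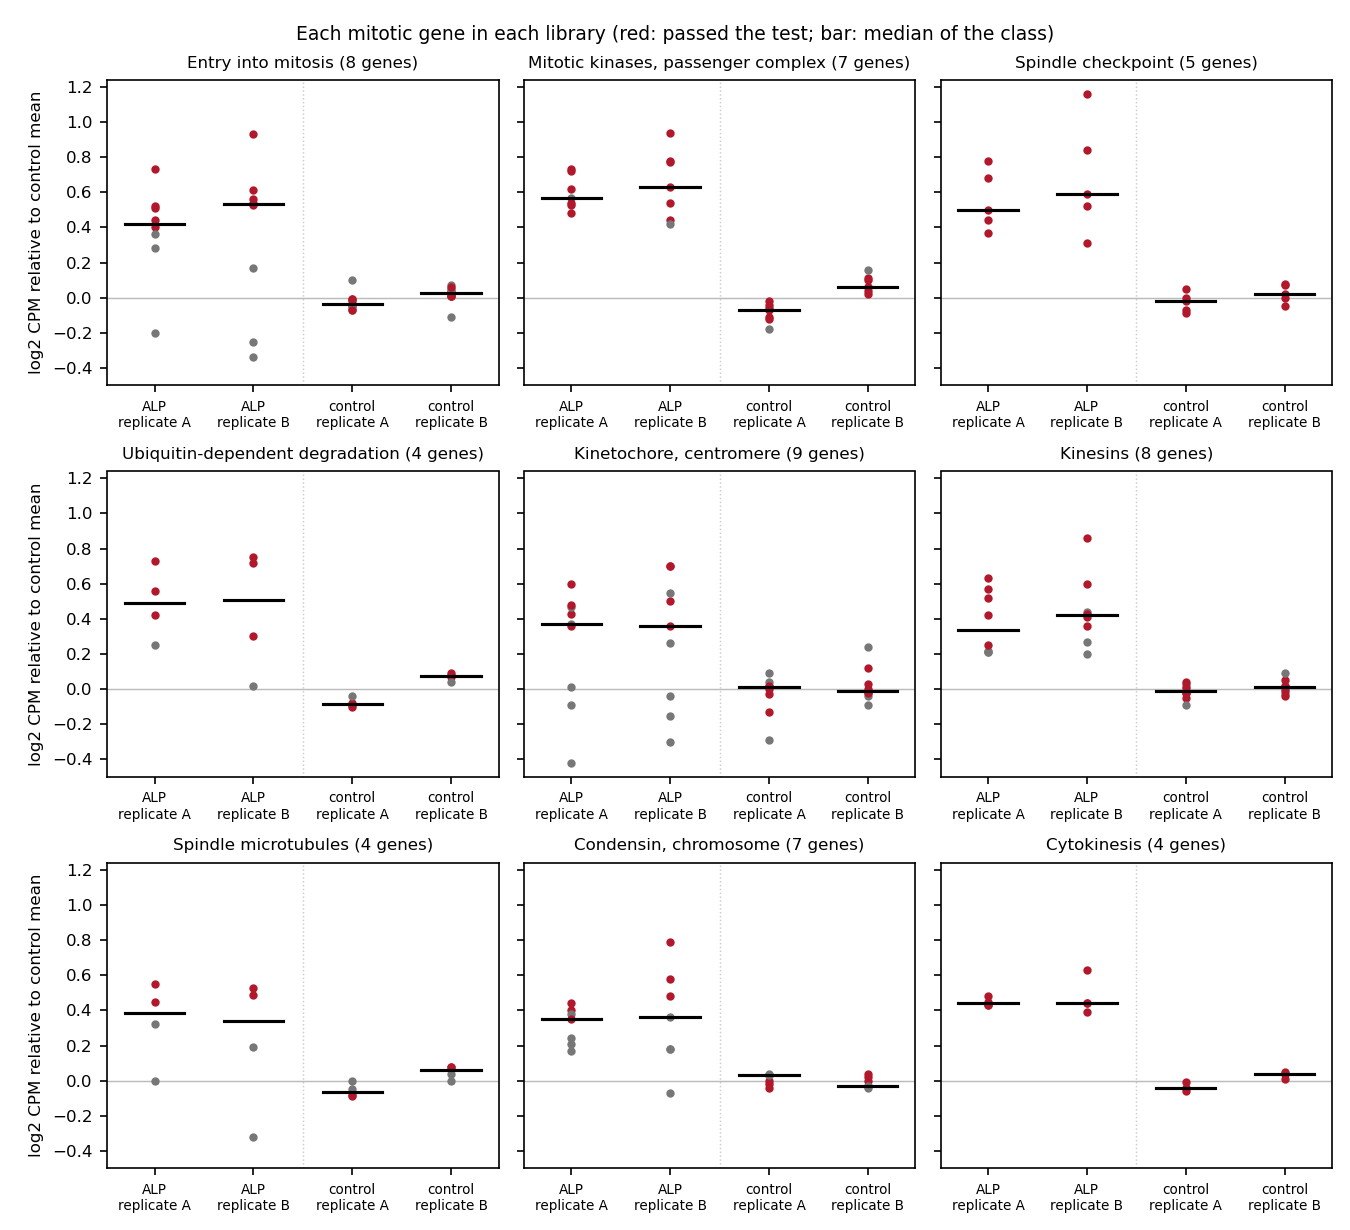
Log2 of each gene's CPM relative to the mean of the 2 control libraries, 1 panel per role and 1 column per library, with red points for genes that passed the test, grey points for the others and a bar for the median of the role. Most genes are above the control mean in both ALP libraries, with medians over the 56 genes of 0.43 and 0.46, and the control columns stay near zero.

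Promoter sequence is shown for 6 of the genes because most of them moved together, 3 that rose and 3 with a difference below zero. A RefSeq window on GRCm38.p6, from 250 bases before to 50 bases after the gene start, was found for 45 of the 56 genes. The windows were searched on both strands for the cell cycle genes homology region (CHR; TTTGAA or TTCGAA), for CCAAT, the box bound by the factor NF-Y, for TAAACA, a core of forkhead sites, and for E2F sites (TTTGGCG followed by C or G, or either TTTCCCG or TTTCGCG followed by C). CHR elements are known as the docking site of the MuvB complex, which works with B-Myb and FoxM1 in dividing cells and with repressors in resting ones. The lines give, 5′ to 3′ on the gene's strand, the windows of the 3 genes with the smallest p-values and then the 3 with the lowest log2 differences, among genes with a CHR match. Capitals mark CHR and CCAAT matches on either strand, and neighbouring matches can run together.
Cdk1, chr10:69352863-69353162, minus strand: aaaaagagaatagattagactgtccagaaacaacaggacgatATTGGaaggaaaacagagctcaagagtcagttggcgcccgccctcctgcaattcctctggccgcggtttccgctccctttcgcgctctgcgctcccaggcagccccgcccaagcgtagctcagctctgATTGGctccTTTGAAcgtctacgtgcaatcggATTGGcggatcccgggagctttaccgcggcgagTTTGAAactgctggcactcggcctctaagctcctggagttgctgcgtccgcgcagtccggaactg
Ube2c, chr2:164769679-164769978, plus strand: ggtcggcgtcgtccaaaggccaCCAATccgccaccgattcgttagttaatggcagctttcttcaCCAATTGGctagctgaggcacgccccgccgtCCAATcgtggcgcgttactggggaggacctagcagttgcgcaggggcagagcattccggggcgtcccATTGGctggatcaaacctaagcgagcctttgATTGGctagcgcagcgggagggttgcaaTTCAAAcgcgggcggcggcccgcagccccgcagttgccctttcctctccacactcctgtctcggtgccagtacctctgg
Aurka, chr2:172370521-172370820, minus strand: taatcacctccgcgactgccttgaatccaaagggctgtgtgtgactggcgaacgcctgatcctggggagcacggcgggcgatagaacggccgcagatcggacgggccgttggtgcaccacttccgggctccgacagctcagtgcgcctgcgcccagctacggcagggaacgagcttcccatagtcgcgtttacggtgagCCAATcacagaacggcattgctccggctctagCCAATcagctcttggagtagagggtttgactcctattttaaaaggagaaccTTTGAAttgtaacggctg
Cdc25b, chr2:131186698-131186997, plus strand: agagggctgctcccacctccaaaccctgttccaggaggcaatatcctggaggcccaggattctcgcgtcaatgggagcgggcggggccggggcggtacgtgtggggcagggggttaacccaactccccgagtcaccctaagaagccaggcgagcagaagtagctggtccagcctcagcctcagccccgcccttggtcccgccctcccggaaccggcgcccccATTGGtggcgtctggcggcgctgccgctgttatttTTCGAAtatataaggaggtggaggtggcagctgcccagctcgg
Cenpa, chr5:30666636-30666935, plus strand: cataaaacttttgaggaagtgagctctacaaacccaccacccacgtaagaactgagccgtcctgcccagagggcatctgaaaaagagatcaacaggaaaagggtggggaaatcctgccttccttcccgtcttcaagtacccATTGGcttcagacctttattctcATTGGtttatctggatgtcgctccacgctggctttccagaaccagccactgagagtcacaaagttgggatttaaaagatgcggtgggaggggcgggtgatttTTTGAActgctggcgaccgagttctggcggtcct
Cenpf, chr1:189688037-189688336, minus strand: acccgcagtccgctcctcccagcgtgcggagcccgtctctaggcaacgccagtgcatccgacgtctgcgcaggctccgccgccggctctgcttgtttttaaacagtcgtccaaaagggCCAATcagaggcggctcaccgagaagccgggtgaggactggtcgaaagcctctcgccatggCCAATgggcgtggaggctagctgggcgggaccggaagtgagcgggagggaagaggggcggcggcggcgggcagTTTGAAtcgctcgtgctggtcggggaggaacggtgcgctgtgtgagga

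The Cdk1 window held 2 CHR matches, 3 CCAAT boxes and 1 match to an E2F site. In Ube2c, 1 CHR match stood with 6 CCAAT boxes, some of them overlapping on opposite strands. Aurka, Cenpa and Cenpf each held 1 CHR match and 2 CCAAT boxes, and Cdc25b 1 of each. Since the printed windows were picked for a CHR match, its presence in them is no finding. The remaining genes below zero, Cenpk and Nusap1, had 0 CHR matches in their windows, and Nusap1 also had 0 CCAAT boxes.

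A CHR match was present in 34 of the 45 windows, or 75.6%, against 13.9% of the windows of all tested genes and 19.2% of all promoters. CCAAT was present in 75.6% of the 45 windows, against 38.9% of tested genes and 37.4% of all promoters. Windows with a CHR match and at least 2 CCAAT boxes made up 44.4% of the 45, against 2.35% of tested genes and 2.31% of all promoters. Sites of the E2F type were in 8.89% of the 45 windows, against 4.47% of tested genes and 2.37% of all promoters, and TAAACA was in 15.6%, against 7.99% and 13.4%. In 32 windows of DNA replication genes the order differed, with a CHR match in 18.8%, CCAAT in 65.6% and an E2F match in 43.8%. A CHR match with at least 2 CCAAT boxes was in 9.38% of them. In 119 windows of other mitotic genes, described below, a CHR match was in 40.3% and CCAAT in 52.9%. There, 16.8% held a CHR match with at least 2 CCAAT boxes. Among the 56 mitotic genes, a CHR match was in 79.3% of the 29 windows of genes that rose and in 68.8% of the 16 windows of genes that did not pass the test. These are matches of letters, and no binding was measured.

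**Figure D3:**
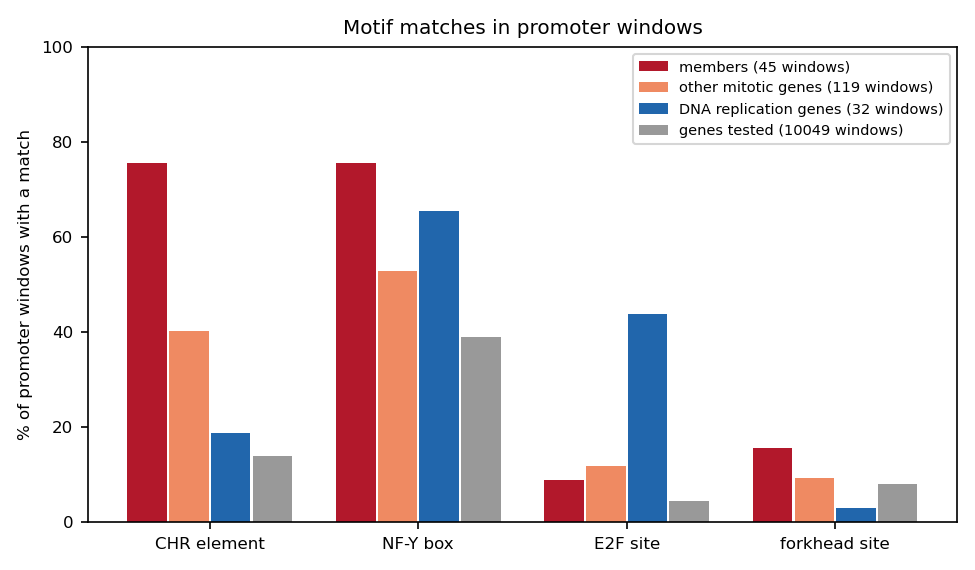
Percent of 300-base promoter windows holding each motif on either strand, for the 56 mitotic genes (45 windows), the other mitotic genes, the DNA replication genes and all tested genes. The 56 mitotic genes have the highest bar for CHR, 75.6%, and the replication genes the highest bar for E2F, 43.8%.

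Regulators of entry into mitosis rose in 5 of 8 cases, with a median log2 difference of 0.48. Cdk1, the kinase that drives mitosis, had 135 and 156 CPM in ALP cultures, against 80.9 and 82.4 CPM in controls, a log2 difference of 0.83 ± 0.10 (SE) with an adjusted p of 0.0149. Of the cyclins that partner Cdk1, Ccna2 and Ccnb1 rose. Ccna2, cyclin A2, had 165 and 177 CPM in ALP cultures, against 112 and 119 CPM in controls (0.56 ± 0.09, adjusted p = 0.0154). Ccnb1, cyclin B1, had 167 and 178 CPM in ALP cultures, against 123 and 125 CPM in controls (0.48 ± 0.08, adjusted p = 0.0165). Foxm1, a transcription factor of G2/M genes, had 115 and 117 CPM in ALP cultures, against 76.8 and 84.1 CPM in controls (0.53 ± 0.09, adjusted p = 0.016). The libraries of the 2 groups did not overlap for any of these 4 genes, as for most tested genes. Cks2, a small subunit that binds Cdk1, also rose, by 0.48 ± 0.10.

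The other 3 entry genes did not pass the test. Ccnb2, cyclin B2, had 81.7 and 76.1 CPM in ALP cultures, against 64.3 and 70.6 CPM in controls (0.23 ± 0.10, adjusted p = 0.124). The phosphatases that switch Cdk1 on gave different values. Cdc25b had 63.1 and 57.1 CPM in ALP cultures, against 77.9 and 66.9 CPM in controls (-0.27 ± 0.11, adjusted p = 0.122). Cdc25c had 24.3 and 16.0 CPM in ALP cultures, against 18.2 and 19.7 CPM in controls (0.09 ± 0.22, adjusted p = 0.783), and its ALP replicates lay on either side of the controls. Cdc25a, the family member that also acts at the start of DNA replication and is outside the 56 genes, rose by 0.96 ± 0.12 (adjusted p = 0.0149).

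Mitotic kinases and the chromosomal passenger complex had the highest median of the 9 roles, 0.62, and 6 of 7 genes rose. Aurka, the kinase of spindle poles, had 95.2 and 97.6 CPM in ALP cultures, against 52.8 and 61.9 CPM in controls (0.75 ± 0.11, adjusted p = 0.0151). Plk1, a kinase with roles from centrosome maturation to cytokinesis, had 120 CPM in both ALP cultures, against 72.1 and 83.7 CPM in controls (0.62 ± 0.10, adjusted p = 0.0158). Pbk, a mitotic serine/threonine kinase, had 45.4 and 53.1 CPM in ALP cultures, against 27.2 and 28.0 CPM in controls (0.83 ± 0.12, adjusted p = 0.0151). Every ALP library was above every control library for all 7 genes of this role, against 38.2% of all tested genes.

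The passenger complex corrects faulty attachments and consists of the kinase Aurkb with Incenp, Birc5 (survivin) and Cdca8 (borealin). Incenp, its scaffold, had 103 and 122 CPM in ALP cultures, against 69.1 and 72.9 CPM in controls (0.66 ± 0.11, adjusted p = 0.0164). Aurkb had 61.4 and 59.6 CPM in ALP cultures, against 42.2 and 45.8 CPM in controls (0.46 ± 0.10, adjusted p = 0.0241), and Cdca8 rose by 0.54 ± 0.09 (adjusted p = 0.0165). Birc5 lay just outside the threshold, with 52.1 and 47.1 CPM in ALP cultures, against 31.0 and 39.4 CPM in controls (0.50 ± 0.15, adjusted p = 0.051). The spread between the control libraries was widest for Birc5 among the 4 subunits.

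All 5 spindle checkpoint genes rose, with a median of 0.51. Bub1, a checkpoint kinase at the kinetochore, had 65.0 and 84.6 CPM in ALP cultures, against 39.1 and 36.7 CPM in controls (0.98 ± 0.15, adjusted p = 0.0151). Mad2l1, which binds and holds the anaphase activator Cdc20, had 76.7 and 85.9 CPM in ALP cultures, against 47.3 and 48.3 CPM in controls (0.77 ± 0.10, adjusted p = 0.0149). Both genes were above the controls in each ALP library. Bub3, which brings Bub1 to the kinetochore, had 147 and 163 CPM in ALP cultures, against 104 and 114 CPM in controls (0.51 ± 0.10, adjusted p = 0.0199). Ttk, the kinase that starts checkpoint signalling, rose by 0.51 ± 0.12 (adjusted p = 0.0305). Bub1b had the smallest difference of the 5, 0.34 ± 0.08, with 87.4 and 84.1 CPM in ALP cultures, against 67.9 and 67.6 CPM in controls.

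Genes of protein degradation rose in 3 of 4 cases, with a median of 0.50. Ube2c, the enzyme that passes ubiquitin to substrates of the anaphase-promoting complex, had 132 and 135 CPM in ALP cultures, against 74.5 and 85.2 CPM in controls (0.74 ± 0.10, adjusted p = 0.0149). Ccnf, cyclin F, which serves a different ubiquitin ligase, had 88.7 and 99.2 CPM in ALP cultures, against 57.2 and 63.5 CPM in controls (0.64 ± 0.11, adjusted p = 0.016). Cdc20, the activator of the anaphase-promoting complex, moved less, with 127 and 117 CPM in ALP cultures, against 89.4 and 101 CPM in controls (0.36 ± 0.10, adjusted p = 0.0456). Cdca3, an adaptor for destruction of the mitosis inhibitor Wee1, overlapped between the groups, with 62.5 and 53.1 CPM in ALP cultures, against 50.9 and 54.0 CPM in controls (0.14 ± 0.11, adjusted p = 0.377). The Cdc20 call was lost when libraries were scaled by the upper quartile (adjusted p = 0.0574) or by their totals (adjusted p = 0.0587).

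Kinetochore genes were mixed: 4 of 9 rose, with a median of 0.36, and 3 lay below zero without passing the test. Of the NDC80 complex, which grips the microtubule end, Spc25 had 39.8 and 46.4 CPM in ALP cultures, against 29.0 and 28.2 CPM in controls (0.59 ± 0.12, adjusted p = 0.0224). Nuf2 rose by 0.47 ± 0.13 (adjusted p = 0.0456), a call lost with upper-quartile scaling (adjusted p = 0.0547), library totals (adjusted p = 0.0529) and DESeq2 (adjusted p = 0.0554). The other members of the complex were on the same side without passing, Ndc80 at 0.32 ± 0.11 (adjusted p = 0.0812) and Spc24 at 0.51 ± 0.21 (adjusted p = 0.109). Knl1, the scaffold that recruits checkpoint proteins, had 69.3 and 68.9 CPM in ALP cultures, against 53.9 and 53.8 CPM in controls (0.36 ± 0.09, adjusted p = 0.0318). Cenph, of the inner kinetochore, had 13.7 and 14.6 CPM in ALP cultures, against 8.83 and 9.20 CPM in controls (0.65 ± 0.15, adjusted p = 0.032).

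The centromere genes Cenpa, Cenpf and Cenpk had no increase. Cenpa, the histone H3 variant that marks the centromere, had 67.0 and 57.7 CPM in ALP cultures, against 71.8 and 70.6 CPM in controls (-0.19 ± 0.11, adjusted p = 0.21). Cenpk, which binds Cenph in the inner kinetochore, had 4.22 and 5.11 CPM in ALP cultures, against 6.00 and 5.31 CPM in controls (-0.28 ± 0.22, adjusted p = 0.365). For both, the ALP libraries lay below the controls. Cenpf, a large protein of the outer kinetochore, had 144 and 139 CPM in ALP cultures, against 144 and 141 CPM in controls (-0.01 ± 0.08, adjusted p = 0.926). Cenph and Cenpk, neighbours in 1 complex, thus had log2 differences of opposite sign, of which the Cenph one passed the test. The difference between them was not tested.

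Kinesins, motor proteins that slide or shorten microtubules, rose in 5 of 8 cases, with a median of 0.38. Kif23, a motor of the central spindle, had 79.0 and 97.0 CPM in ALP cultures, against 52.7 and 53.9 CPM in controls (0.72 ± 0.12, adjusted p = 0.0164). Kif20a, which carries the passenger complex to the midzone, had 94.1 and 92.4 CPM in ALP cultures, against 59.0 and 63.1 CPM in controls (0.61 ± 0.09, adjusted p = 0.0151). Kif4, which works on chromosomes and the central spindle, rose by 0.41 ± 0.09 (adjusted p = 0.0244). Both ALP libraries were above both controls for all 8 kinesins, against 38.2% of all tested genes. Kif2c, which depolymerises microtubules at centromeres, rose by 0.44 ± 0.10. Cenpe, which moves chromosomes to the spindle equator, rose by 0.34 ± 0.10 (adjusted p = 0.048), but not in edgeR with RLE (adjusted p = 0.0541), upper-quartile (0.0649) or total scaling (0.0595), nor in DESeq2 (adjusted p = 0.0561). Kif11, the motor that pushes the spindle poles apart, stood at 0.24 ± 0.08 and Kif20b, which acts late in cytokinesis, at 0.33 ± 0.11, with adjusted p-values of 0.0771 and 0.0688. Kif18a, which limits the length of kinetochore microtubules, had 16.8 and 16.6 CPM in ALP cultures, against 13.5 and 15.3 CPM in controls (0.21 ± 0.14, adjusted p = 0.299).

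Of the 4 spindle assembly factors, 2 rose, and the median was 0.36. Tpx2, which activates Aurka on the spindle, had 182 and 180 CPM in ALP cultures, against 117 and 132 CPM in controls (0.54 ± 0.09, adjusted p = 0.0167). Dlgap5, a stabiliser of kinetochore microtubules, had 72.7 and 74.8 CPM in ALP cultures, against 50.5 and 56.3 CPM in controls (0.47 ± 0.10, adjusted p = 0.0242). Neither gene overlapped between the groups. Hmmr, a spindle protein that is also a hyaluronan receptor, had 97.1 and 88.9 CPM in ALP cultures, against 75.3 and 80.2 CPM in controls (0.26 ± 0.09, adjusted p = 0.0837). Nusap1, a microtubule bundler, had 45.5 and 36.5 CPM in ALP cultures, against 45.5 and 45.6 CPM in controls (-0.15 ± 0.13, adjusted p = 0.409), so only ALP replicate B stood apart.

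Condensin and other chromosome proteins had the lowest median of the 9 roles, 0.28, with 3 of 7 genes higher. Smc2, an ATPase core of condensin, had 141 and 180 CPM in ALP cultures, against 101 and 107 CPM in controls (0.63 ± 0.13, adjusted p = 0.025). Ncapg, a subunit of condensin I, had 55.5 and 62.7 CPM in ALP cultures, against 41.9 and 42.0 CPM in controls (0.50 ± 0.10, adjusted p = 0.0244). Only these 2 of the 5 condensin I genes passed the test. Smc4, the partner of Smc2, stood at 0.27 ± 0.10 (adjusted p = 0.0841) and Ncaph, the subunit that closes the condensin I ring, at 0.28 ± 0.11 (adjusted p = 0.0975). Ncapd2, another condensin I subunit, had 168 and 138 CPM in ALP cultures, against 147 and 142 CPM in controls (0.08 ± 0.11, adjusted p = 0.612), and its ALP replicates lay on either side of the controls.

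The 2 proliferation markers of this role had the highest CPM of the 56 genes, without regard to gene length. Per kilobase, Cks2 and Cdc20 lay above both. Top2a, the topoisomerase that untangles sister chromatids, had 504 and 552 CPM in ALP cultures, against 390 and 399 CPM in controls (0.42 ± 0.09, adjusted p = 0.025). Mki67, which encodes Ki-67, a coat protein of mitotic chromosomes used to mark dividing cells, had 526 and 504 CPM in ALP cultures, against 454 and 435 CPM in controls (0.21 ± 0.08, adjusted p = 0.105). The Mki67 groups did not overlap, and among all alternatives Mki67 passed the test only without ALP replicate B, where its difference was 0.25 with an adjusted p of 0.032.

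All 4 cytokinesis genes rose, by nearly the same amount, with a median of 0.44. Anln, anillin, which ties the contractile ring to the membrane, had 306 and 347 CPM in ALP cultures, against 218 and 231 CPM in controls (0.54 ± 0.10, adjusted p = 0.018). Ect2, the exchange factor that activates RhoA at the equator, had 88.4 and 88.8 CPM in ALP cultures, against 65.1 and 65.7 CPM in controls (0.44 ± 0.08, adjusted p = 0.0193). Prc1, which bundles midzone microtubules, had 150 and 151 CPM in ALP cultures, against 107 and 115 CPM in controls (0.43 ± 0.08, adjusted p = 0.0203). None of these overlapped between the groups. Racgap1, which with Kif23 forms centralspindlin and recruits Ect2, had 153 and 144 CPM in ALP cultures, against 107 and 113 CPM in controls (0.44 ± 0.09, adjusted p = 0.0207).

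**Figure D4:**
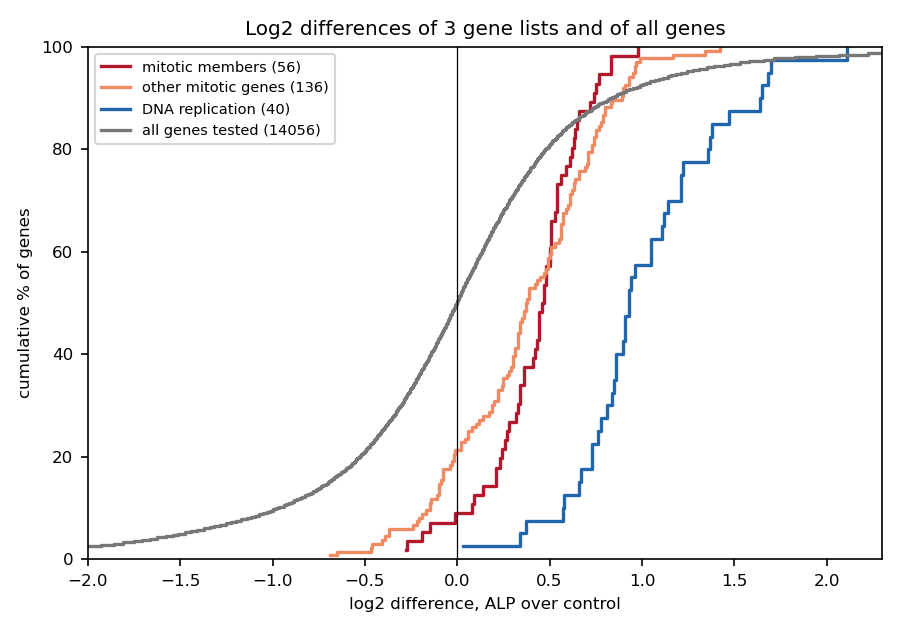
Cumulative share of genes by log2 difference, ALP over control, for the 56 mitotic genes, other mitotic genes, DNA replication genes and all 14056 tested genes. The medians are 0.46, 0.38, 0.93 and near zero, and the curve of the 56 genes is steep between its quartiles of 0.28 and 0.57.

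Levels between genes were compared per length, as TMM-scaled CPM divided by the gene length in kilobases that the table gives. The median level of the 56 genes was 17.8 CPM per kilobase in ALP cultures and 14.2 CPM per kilobase in controls. Cks2 was the highest, with a mean of 84.2 CPM per kilobase in ALP cultures and 60.4 in controls, and Cdc20 came next, with 65.3 CPM per kilobase in ALP cultures and 50.9 in controls. Cenpk was the lowest at 0.892 CPM per kilobase in ALP cultures and 1.08 in controls, below Kif18a at 1.69 CPM per kilobase in ALP cultures and 1.46 in controls. The order within the list shifted for a few genes. Bub1 ranked 29 in ALP cultures and 43 in controls, whereas Cdc25b ranked 33 in ALP cultures and 18 in controls and Cenpa 42 in ALP cultures and 31 in controls. Within the NDC80 complex the 4 subunits spanned 4.98 to 13.5 CPM per kilobase in ALP cultures and 3.91 to 8.96 in controls. Levels and order between genes depend on the length used. For Ndc80 the table gives 6493 bases, where its longest coding transcript in GENCODE M21 has 2201.

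**Figure D5:**
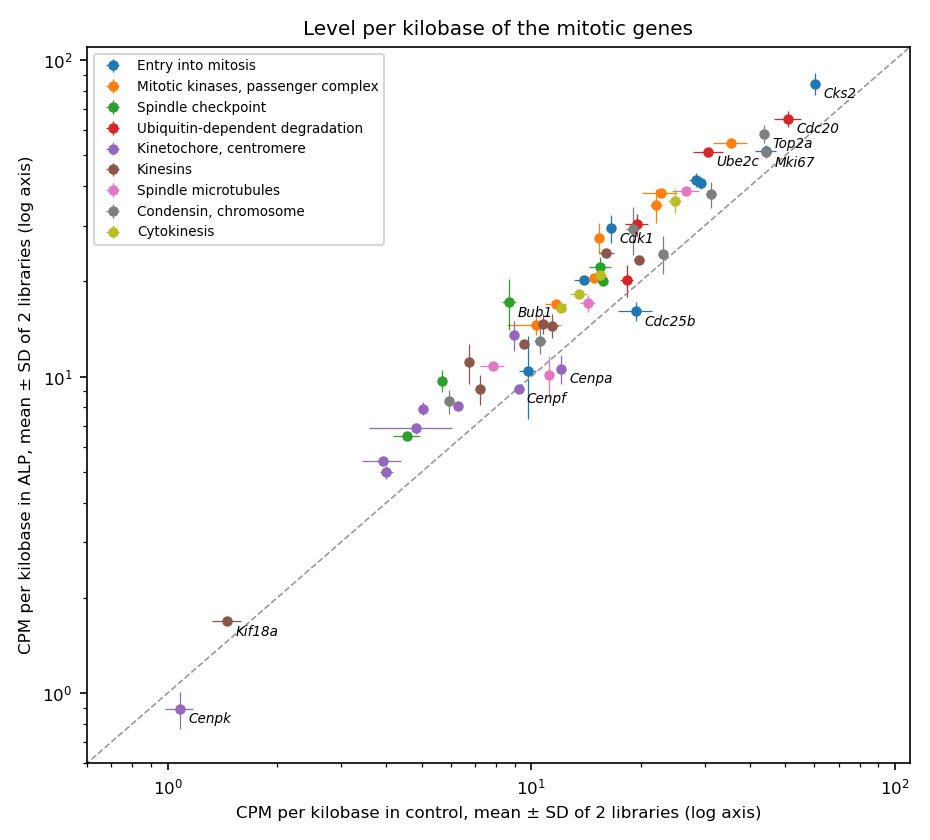
Mean level of each of the 56 genes in CPM per kilobase, ALP cultures on the vertical axis and control cultures on the horizontal axis, both on log scales, with bars for the SD of 2 libraries and a dashed line of equal levels. Most genes lie above the line, up to Cks2 at 84.2 in ALP cultures and 60.4 in controls, and Cenpk lies below it at 0.892 in ALP cultures and 1.08 in controls.

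A further list of 138 mitotic genes, of which 136 were tested, held changes in both directions: 64 rose (47.1%) and 5 fell, with a median of 0.38. The 6 smallest p-values among those that rose belonged to the tubulin gene Tubb4b (0.97 ± 0.11), Mybl2, which encodes B-Myb (1.42 ± 0.17), Cdc25a, the condensin II subunit gene Ncapg2 (0.75 ± 0.09), Tacc3, a stabiliser of kinetochore fibres (0.66 ± 0.08), and Trip13, an ATPase that remodels Mad2 (1.34 ± 0.18). Mybl2 had 65.9 and 89.2 CPM in ALP cultures, against 27.2 and 30.8 CPM in controls. Of the MuvB subunit genes, Lin9 rose by 0.73 ± 0.15 (adjusted p = 0.0221). Lin54 stood at 0.37 ± 0.11, Lin52 at -0.10 ± 0.20 and Lin37 at -0.41 ± 0.19, with adjusted p-values of 0.058, 0.707 and 0.149. By role, all 4 tested other mitotic kinases rose, against 6 higher and 1 lower of 19 genes of the anaphase-promoting complex and its partners, and 5 higher and 3 lower of 17 condensin II, cohesin and related genes.

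Genes of sister chromatid cohesion were found among those that fell, those that rose and those that did not pass the test. Smc3, Rad21, Stag1, Wapl, Pds5a, Pds5b and Mau2 did not pass. Their log2 differences ran from -0.17 for Mau2 to 0.25 for Stag1, with Rad21 at 0.02 and Smc3 at 0.12. Pttg1, securin, the inhibitor of the enzyme that cuts cohesin, had 9.66 and 8.92 CPM in ALP cultures, against 16.1 and 14.0 CPM in controls (-0.69 ± 0.16, adjusted p = 0.0312). Stag2, a cohesin subunit, differed by -0.37 ± 0.09 (adjusted p = 0.0337) and Nipbl, the cohesin loader, by -0.37 ± 0.08 (adjusted p = 0.0276). Of the same list, the cohesin subunit gene Smc1a rose by 0.51 ± 0.10, Cdca5 (sororin), which stabilises cohesin on DNA, by 0.73 ± 0.14, and Espl1 (separase), the enzyme that cuts cohesin, by 0.57 ± 0.10. The shugoshin genes Sgo1 and Sgo2a, protectors of centromeric cohesion, rose by 0.62 ± 0.15 and 0.74 ± 0.17, with 35.0% of the Sgo2a exons covered by Kctd18 on the opposite strand. Top2b, the topoisomerase also used outside the cell cycle, differed by -0.47 ± 0.12 (adjusted p = 0.0337), opposite in sign to Top2a, and Kif13b, a transport kinesin, by -0.65 ± 0.18 (adjusted p = 0.0426).

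DNA replication genes, transcribed around the start of S phase, had a larger median difference, 0.93, a fold of 1.9, and 38 of 40 rose and 0 fell. Mcm3, a subunit of the replicative helicase, had 140 and 177 CPM in ALP cultures, against 48.4 and 52.8 CPM in controls (1.65 ± 0.14, adjusted p = 0.0149). Mcm2 and Mcm4 of the same ring rose by 1.21 ± 0.11 and 1.22 ± 0.11. Of the 40 genes, 17 were called with at least a 2-fold change, where the 56 mitotic genes had 0. The difference between these lists was not tested.

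Markers of keratinocyte state and of other cell types were set beside the mitotic genes. Summed over 6 markers of differentiated keratinocytes, ALP replicates A and B had 859 and 56.9 CPM before TMM scaling, against 3370 and 2780 CPM in control replicates A and B. In the controls and ALP replicate A most of that sum was Krt1 and Krt10. Neither passed the test (adjusted p = 0.164 and 0.125). By the test 3 of the 6 were lower (Lor, Flg and Sbsn) and 1 was higher (Ivl). The sum of 8 basal keratinocyte markers was 37500 and 31100 CPM in ALP cultures, against 49900 and 50000 CPM in controls. Most of that sum was Krt5 and Krt14, which did not pass the test, while 3 of the 8 rose (Itga6, Itgb4 and Itgb1) and 2 fell (Trp63 and Col17a1). Fibroblast markers summed to 8.72 and 4.76 CPM in ALP cultures, against 18.2 and 14.5 CPM in controls, with Lum at 0 in all libraries. Of the 6 tested fibroblast genes 1 was called, Dcn, at 3.07 and 0.517 CPM in ALP cultures, against 13.1 and 8.57 CPM in controls. Melanocyte markers summed to 70.5 and 57.3 CPM in ALP cultures, against 75.1 and 68.8 CPM in controls, with 1 of 7 lower and 0 higher. Endothelial markers summed to 14.5 and 24.5 CPM in ALP cultures, against 6.26 and 7.78 CPM in controls, with Emcn at 0, and 2 of the 3 tested rose and 1 fell. Immune markers, none of which had enough counts to test, summed to between 0.402 and 1.04 CPM in the 4 libraries, with Cd3e and Cd207 at 0. The part of these values in the mitotic result was not tested. ALP replicates A and B lay far apart in the differentiation sum, and their median deviations of the mitotic genes were 0.43 and 0.46. These are unlike measures, and single mitotic genes had log2 differences of ALP replicate B over A from -0.61 to 0.38. Any relation between the markers and the mitotic genes was not tested.

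Several genes share sequence with neighbours or copies, and the strand setting of the counting is not given. Exons of Cdc23 on the opposite strand cover 29.3% of the Kif20a exons. Opposite-strand exons of Pdzd11 cover 15.1% of Kif4, those of Lcorl 13.4% of Ncapg, those of Exosc9 12.5% of Ccna2 and those of Rccd1 11.1% of Prc1, so part of these reads may belong to the partner. Ppwd1 on the opposite strand had 1279 counts in all where Cenpk had 351, with 4.45% of the Cenpk exons covered. Near-identical copies of Ccnb1, Cks2 and Ndc80 held fewer reads than these genes, the largest being 324 counts for the Ndc80 copy 2700099C18Rik against 1976 for Ndc80. How reads that fit both a gene and its copy were counted is not given.

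The calls, like those over all genes, rested on both control libraries. Without control replicate A or without control replicate B, 0 of the 56 genes passed edgeR's adjusted threshold, although 26 and 36 of them had an unadjusted p under 0.05 and 51 stayed above zero in both fits. The spread in those 2 fits comes from the ALP pair alone, and in the fits without an ALP library from the control pair alone. Without ALP replicate A, the median log2 difference was 0.46 for the 56 genes and -0.01 for all genes. In that fit 49 of the 56 lay above zero and 7 below, with Cdc25b at -0.35, Cenpa at -0.31 and Nusap1 at -0.32. Without ALP replicate B, the medians were 0.45 and 0.01, with 53 of the 56 above zero and 3 below. With no filter on low counts, 0 passed and 44 had an unadjusted p under 0.05, the smallest adjusted p being 0.0524. DESeq2 called 36 of the 56 genes higher and 0 lower, and so did the adjusted p-values in the authors' deposited table. In the authors' deposited table Birc5 passed, with an adjusted p of 0.0382, and Nuf2 and Cenpe did not, at 0.0553 and 0.056. For these 3 genes DESeq2 gave nearly the same adjusted p-values, 0.0383, 0.0554 and 0.0561. The DESeq2 count and the deposited one are therefore not independent of each other.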

How the data were processed

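RNA of 4 libraries, 2 per group, was sequenced from cultured mouse EpSCs. Per the submitters' processing notes, the authors used HISAT2 2.0.5 and featureCounts 1.5.0-p3. The build named there is GRCh38, but the gene identifiers are mouse and match GRCm38 coordinates, so windows are given on GRCm38.p6. The deposited table holds raw counts per library, per the file headers. Its 4 FPKM columns were not used, since levels per length were computed from the counts and the gene lengths. The authors' deposited signal columns, a mean of normalized counts per group, were not used. The log2 fold changes and p-values that the authors deposited come from a test that no source used here describes, and the same holds for the library kit, strandedness and counting options.

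Column numbers in the table differ from those in the labels, so columns were assigned to groups only, and the letters A and B follow column order. R 4.3.3 and edgeR 4.0.16 were used on the counts: filterByExpr (minimum count 10, minimum total 15), TMM scaling and the two-sided quasi-likelihood test (non-legacy) on the group alone, with 2 residual degrees of freedom. P-values were adjusted by Benjamini-Hochberg over all 14056 tested genes, and genes were called under 0.05. Standard errors are the log2 difference divided by the square root of the F statistic. The code was tested on simulated data. Alternatives were RLE, upper-quartile and total scaling, no filter, DESeq2 1.42.0, voom (limma 3.58.1), each library left out and, added after seeing the data, edgeR's legacy fit. Promoter windows came from RefSeq, and exon overlaps from GENCODE M21. Reads carried no molecular identifiers that the sources mention, so counts are not counts of independent molecules.

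The genes, lists and tests were chosen with earlier results of these data known. Genes named by rule are, in each role, the 3 with the smallest p and the 1 with the largest, and 9 well-known genes (Mki67, Top2a, Ccnb1, Cdk1, Plk1, Aurka, Aurkb, Cdc20 and Foxm1). The rule also took every gene below zero, the 6 smallest p in each direction among called genes of the further mitotic list, and the 3 smallest among replication genes. CPM values are not printed for every gene so named. Other genes, among them Ccnb2, Incenp and the MuvB genes, were named after their values were seen.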

Additional observations from a re-analysis of the deposited data

How the results depend on the processing

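The median log2 difference of the 56 mitotic genes stayed between 0.39 and 0.50 when each library was left out in turn, while the number called higher ran from 0 to 43 and lower from 0 to 3. In the same fits 0 to 86 other mitotic genes were called higher and 0 to 13 lower, 0 to 38 replication genes were called higher, and over all genes 0 to 3872 were called higher and 0 to 3646 lower, with a median of -0.01 to 0.01. Each such fit assumes that the lone library varies like the other group. With no filter on low counts, 0 genes were called in either direction in every list and over all genes, with 25280 genes tested. Upper-quartile and total scaling moved the median of all genes to -0.04 and left 34 of the 56 genes called higher, RLE scaling 36, voom 38 and the legacy fit 37. DESeq2 called 36, of which 35 were shared with edgeR's 37. Birc5 passed with DESeq2 (adjusted p = 0.0383) and voom (adjusted p = 0.0411). Over these fits the sign turned for Cdc25c (-0.25 to 0.37) and Ncapd2 (-0.07 to 0.23), negative without ALP replicate A, and for Cenpf (-0.04 to 0.03) and Nusap1 (-0.32 to 0.01), positive without ALP replicate B. The cause was not tested. No paired analysis was possible because the columns' numbers are not those of the labels and the groups share fewer than 2 of them. With 2 libraries per group, some log2 differences with no overlap between groups missed the threshold, from 0.21 for Kif18a to 0.51 for Spc24 above zero and from -0.28 for Cenpk to -0.19 for Cenpa below it, which does not show that they are absent.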

Other observations

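Among the further mitotic genes are those of the augmin complex, which seeds new microtubules on spindle microtubules. Both ALP libraries were above both controls for all 8 of its subunit genes, against 38.2% of all tested genes. Of these subunit genes, Haus3, Haus4, Haus6 and Haus7 passed the test. Haus6 had 54.2 and 75.4 CPM in ALP cultures, against 32.6 and 32.7 CPM in controls (log2 difference 0.99 ± 0.17, adjusted p = 0.0171), and Haus1 had 20.1 and 19.7 CPM in ALP cultures, against 17.6 and 16.2 CPM in controls (0.24 ± 0.13, adjusted p = 0.208). Genes of centriole duplication gave Plk4, its master kinase, at 0.61 ± 0.10, Stil at 0.80 ± 0.13, Sass6 at 0.84 ± 0.17 and Cep152 at 0.57 ± 0.16, all passing the test. Cep192 stood at 0.37 ± 0.11 (adjusted p = 0.0543) and Cenpj at 0.02 ± 0.16 (adjusted p = 0.924). These groups were picked after their values were seen.

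Genes that place Cenpa at centromeres gave mixed values. Hjurp, its chaperone, had 189 and 191 CPM in ALP cultures, against 140 and 142 CPM in controls (0.43 ± 0.08, adjusted p = 0.0175). Mis18a stood at 0.31 ± 0.15 and Oip5 at -0.01 ± 0.17, and neither passed the test. Haspin, the kinase that marks histone H3 for the passenger complex, rose by 1.17 ± 0.18 (adjusted p = 0.0151). These genes too were picked after their values were seen.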
